A study of Mus with 6 samples.

Results

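The making of neutrophil granules was followed through 10 genes in leukaemic cells of mice with and without Klf4. The genes were Mpo, Elane, Prtn3, Ctsg, Ms4a3, S100a8, S100a9, Ltf, Camp and Mmp8, taken by name, with every probe of the array whose platform annotation gives one of these symbols. That gave 15 of the 45281 probes, all 10 genes being represented: 4 probes of Mpo, 2 each of Ms4a3 and Ltf, and 1 for each of the other 7 genes. The cells came from bone marrow of C57BL/6 mice, per the labels, in which BCR-ABL p210 had induced chronic myeloid leukaemia (CML), and were taken 14 days after transplantation. They were sorted as green fluorescent, lineage negative, Sca-1+ c-Kit+ (LSK) cells, the fraction that holds the leukaemia stem cells (LSC). Both groups carried BCR-ABL p210, so there was no array of normal marrow. There were 3 arrays of wild-type (WT) and 3 of Klf4-deficient leukaemia. The labels give no age or sex, do not say which promoter or Cre removed Klf4, and do not say whether an array held RNA of 1 mouse or of a pool. Nothing in them says that the arrays of a group were separate animals, so a p-value here speaks only of the spread from sample to sample, part of which could be technical.

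Neutrophils pack their granules in order as they mature. The azurophil or primary granules come first, in promyelocytes, and hold myeloperoxidase and the serine proteases; the specific or secondary granules follow in myelocytes and hold lactoferrin, the cathelicidin precursor and collagenase; S100a8 and S100a9 become abundant in the cytosol of late cells. Azurophil transcripts, Mpo above all, can already be found in early myeloid progenitors, while the transcripts of the later granules mark cells that a lineage negative sort should leave out. In CML the leukaemic stem cells give rise to an excess of this lineage. Klf4 itself is a zinc finger transcription factor of the myeloid lineage, among other tissues.

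The values are bead intensities after background subtraction, on one scale across the 6 arrays. A value of 32 or less was treated as not above background and set to 32 before log2, as 1 floor for all probes. Between 7082 and 7214 probes per array exceeded 32. A probe was tested when it exceeded 32 on at least 1 of the 6 arrays, which held for 18270 probes, 14 of the 15 granule and neutrophil probes among them. WT replicate 3 stood apart: over the tested probes it correlated with the other 5 arrays at a Pearson r of 0.287 to 0.299, while those 5 correlated with each other at 0.662 to 0.725, across probes, which are not independent replicates. Probes of the same gene also went together less on that array, with a Pearson r of 0.133 across 6392 probe pairs, which are not independent, against 0.308 to 0.356 on the other 5. A value of WT replicate 3 may therefore not stand for the gene its probe is named for; the cause was not tested, and the results of the 10 genes are given with and without that array. Klf4 exceeded 32 on 1 of 6 arrays, on 1 of its 3 probes (51.9 in WT replicate 2), so the array did not check the knockout labels. Of 10 stem and progenitor markers, each read by its brightest probe, 9 exceeded 32 on at least 1 array, as did 18270 of all 45281 probes. Mecom (61.4), Cd34 (43.2), Procr (41.6), Hlf (34) and Meis1 (104.8) did so on 1 array only, so the count says little of the sort. Gata2, a transcription factor of early progenitors, read 698.9 and 534.7 in WT replicates 1 and 2, -1.9 in WT replicate 3, and 601.6, 415.3 and 346.2 in the Klf4-deficient arrays. Kit, the gene of a sort marker, exceeded 32 on 1 WT and 2 Klf4-deficient arrays on its brightest probe, and Slamf1 on 0. The WT array was WT replicate 3 (381.5), while WT replicates 1 and 2 read 11.5 and 17.4.

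No granule or neutrophil probe passed the test between the groups. With limma across all 18270 probes, 0 of the 14 tested had a Benjamini-Hochberg adjusted p under 0.05, as did 0 of all probes (percent called 0). An unadjusted p under 0.05 was reached by 1 of the 14 and by 2.03% of all probes tested. Of the 14, 7 were lower and 7 higher in the Klf4-deficient arrays, with a median difference of 0.04 (log2), against a median of -0.05 over all probes tested. The differences ran from -2.39 to 1.33, with standard errors (SE) of 0.30 to 1.48. The probe outside the test, an Ltf probe, lay between -9.9 and 5.2 on every array. Since the arrays hold bulk RNA, fewer cells of a type and less RNA per cell cannot be told apart in any of these values.

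**Figure D1:**
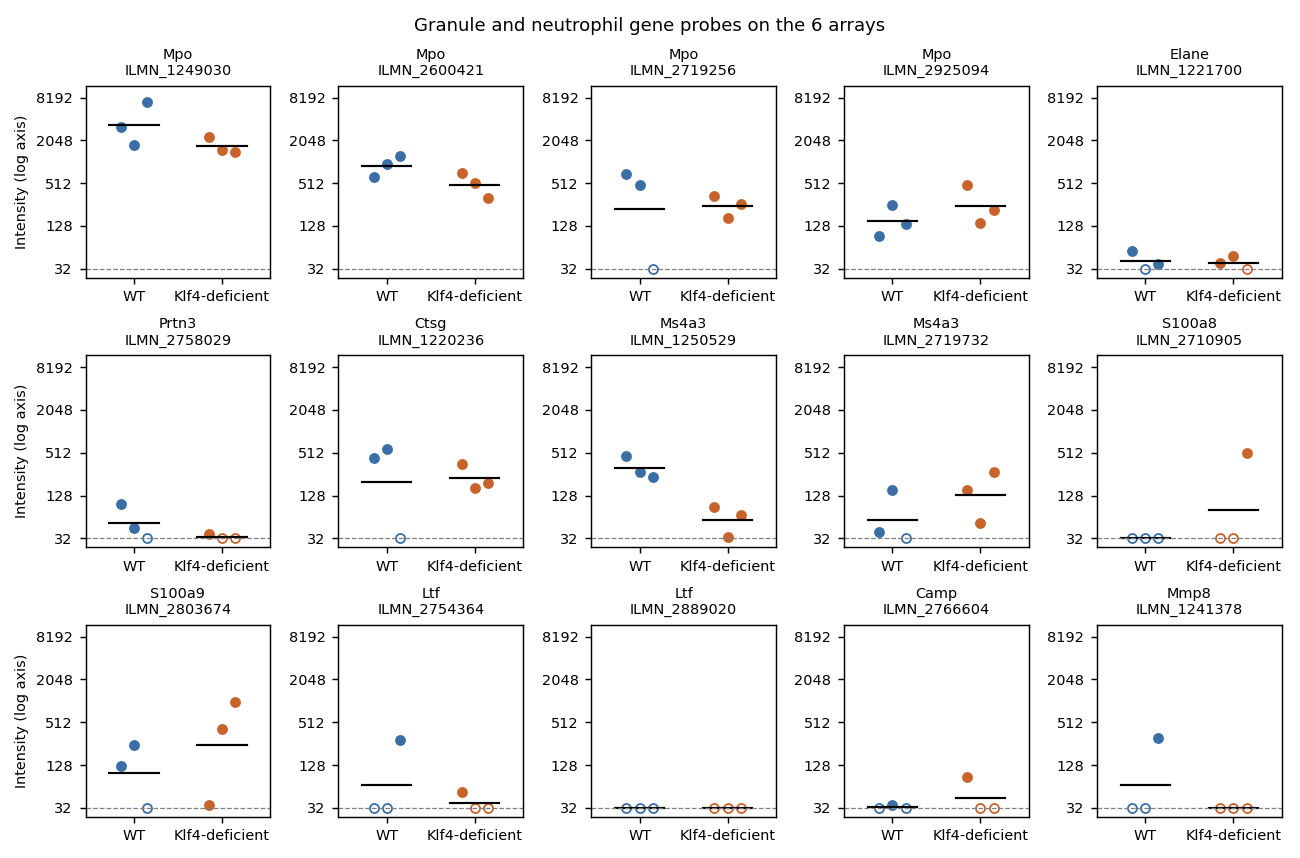
Intensity (log axis) of each of the 15 probes in 3 WT and 3 Klf4-deficient arrays, in replicate order from left to right within a group. Filled points lie above 32 and open points, drawn on the dashed line, at or below it; the bar is the group mean of log2 values with a floor of 32. The groups are apart only for Ms4a3 probe ILMN_1250529, with 236.7 to 455.2 in WT and 33.8 to 87.5 in the Klf4-deficient arrays.

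Mpo encodes myeloperoxidase, the haem enzyme that makes hypochlorous acid in azurophil granules, and was above the floor on every array on 3 of its 4 probes. All 4 of its probes are annotated to the same RefSeq transcript, yet they did not order the arrays alike. Probe ILMN_1249030 read 3117, 1735.2 and 7153.2 in WT and 2313.4, 1488.5 and 1422.1 in the Klf4-deficient arrays. WT replicate 3 was the highest array there, and the other 2 WT arrays lay on both sides of Klf4-deficient replicate 1. The means were 11.72 ± 1.03 (log2, SD, n = 3) in WT and 10.73 ± 0.39 in the Klf4-deficient arrays. The difference of -0.99 ± 0.57 (log2, SE) missed the threshold (limma adjusted p = 0.715), and it was -0.45 ± 0.40 without WT replicate 3.

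Probe ILMN_2600421 of Mpo read 629.9, 952.6 and 1224.2 in WT and 719.2, 509.5 and 320 in the Klf4-deficient arrays. Klf4-deficient replicate 1 overlapped the WT range. The difference was -0.88 ± 0.41 (log2, SE, limma adjusted p = 0.715), and -0.66 ± 0.45 without WT replicate 3. On probe ILMN_2719256 the array order turned over: WT gave 697.7, 489.5 and 13.6, and Klf4-deficient arrays gave 340.8, 164 and 261.9. WT replicates 1 and 2 were above every Klf4-deficient array, while WT replicate 3, the brightest array on both earlier probes, was at the floor. The difference was thus 0.14 ± 1.27 with all arrays (limma adjusted p = 0.960) and -1.26 ± 0.41 without WT replicate 3 (limma unadjusted p = 0.035, adjusted p = 0.836). Probe ILMN_2925094 went the other way, with 92.8, 255.3 and 137.9 in WT against 480.2, 141 and 213.8 in the Klf4-deficient arrays, a difference of 0.72 ± 0.61 (limma adjusted p = 0.715). Without WT replicate 3 this probe stood at 0.66 ± 0.75. Of the 4 Mpo probes, 2 were thus lower and 2 higher with all arrays, and 3 were lower and 1 higher without WT replicate 3; the mean of the 4 differed by -0.26 ± 0.33 (SE, limma adjusted p = 0.750).

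**Figure D2:**
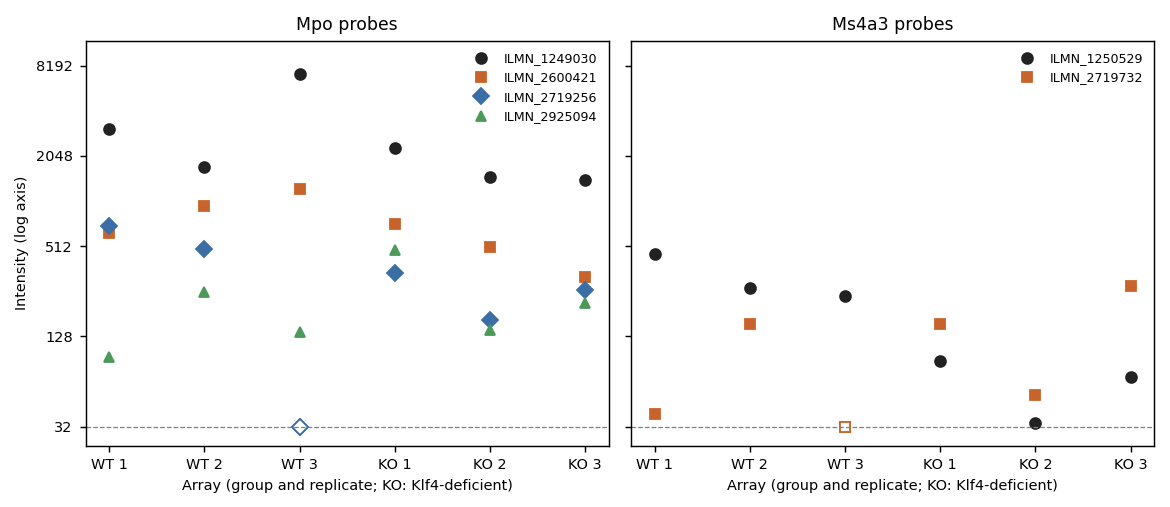
Intensity (log axis) of the 4 Mpo probes (left) and the 2 Ms4a3 probes (right) on each array, 1 symbol per probe, with open symbols on the dashed line for values of 32 or less. In WT replicate 3 the Mpo probes span 7153.2 to 13.6, and the Ms4a3 probes, 236.7 and -9.4, lie on both sides of the floor.

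The serine proteases of the azurophil granule, which digest engulfed microbes, had 1 probe each. Ctsg, cathepsin G, read 436.4, 573.1 and 8.8 in WT and 355.4, 165.4 and 194.8 in the Klf4-deficient arrays. As on Mpo probe ILMN_2719256, WT replicates 1 and 2 were above all Klf4-deficient arrays and WT replicate 3 was at the floor. The group means, 7.64 ± 2.30 (log2, SD, n = 3) and 7.82 ± 0.58, differed by 0.17 ± 1.21 (SE, limma adjusted p = 0.948). Without WT replicate 3 the Ctsg difference turned to -1.15 ± 0.42 (limma unadjusted p = 0.0499, adjusted p = 0.836).

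Prtn3, proteinase 3, lies next to Elane among protein-coding genes in the RefSeq gene list of assembly GRCm38.p6, with 0 such genes between them. It read 97.5, 45 and 28.8 in WT and 36.3, 27.4 and 28.1 in the Klf4-deficient arrays, so 2 WT arrays and 1 Klf4-deficient array exceeded 32. The difference of -0.64 ± 0.44 (log2, SE) missed the threshold (limma adjusted p = 0.715), and became -0.99 ± 0.40 without WT replicate 3 and -0.19 without WT replicate 1, which holds the highest value. Its neighbour Elane, neutrophil elastase, read 56.2, 19.9 and 37.4 in WT and 38.9, 47.7 and 9.3 in the Klf4-deficient arrays. Each group had 2 arrays just above the floor and 1 below it, and the difference was -0.06 ± 0.30 (limma adjusted p = 0.925). Without WT replicate 3 it was -0.12 ± 0.36. No Elane value exceeded 56.2, so a fall to below the floor would not show in full.

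Taken over the 7 azurophil probes, the direction depended on WT replicate 3. With all arrays 4 were lower and 3 higher in the Klf4-deficient arrays, with a median of -0.06 (log2). Without that array 6 were lower and 1 higher, with a median of -0.66, against a median of 0.06 over all probes tested. In that comparison 3 of the 7 azurophil probes, those of Prtn3, Ctsg and Mpo probe ILMN_2719256, had both WT arrays above all Klf4-deficient arrays. With an Ms4a3 probe they made 4 of the 13 granule and neutrophil probes then tested, where the share over all probes was 5.1%; in the other direction it was 0 of 13 and 3.36%. An unadjusted p under 0.05 in limma was reached by 3 of the 13 and by 3.56% of all probes. The probes share genes and arrays and are not replicates of a condition, and 0 of the 7 had an adjusted p under 0.05 in limma. The mean of the 7 probes was 8.30, 8.18 and 7.20 (log2) in WT and 8.13, 7.43 and 7.45 in the Klf4-deficient arrays. Klf4-deficient replicate 1 lay near WT replicates 1 and 2, and WT replicate 3 below all other arrays.

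**Figure D3:**
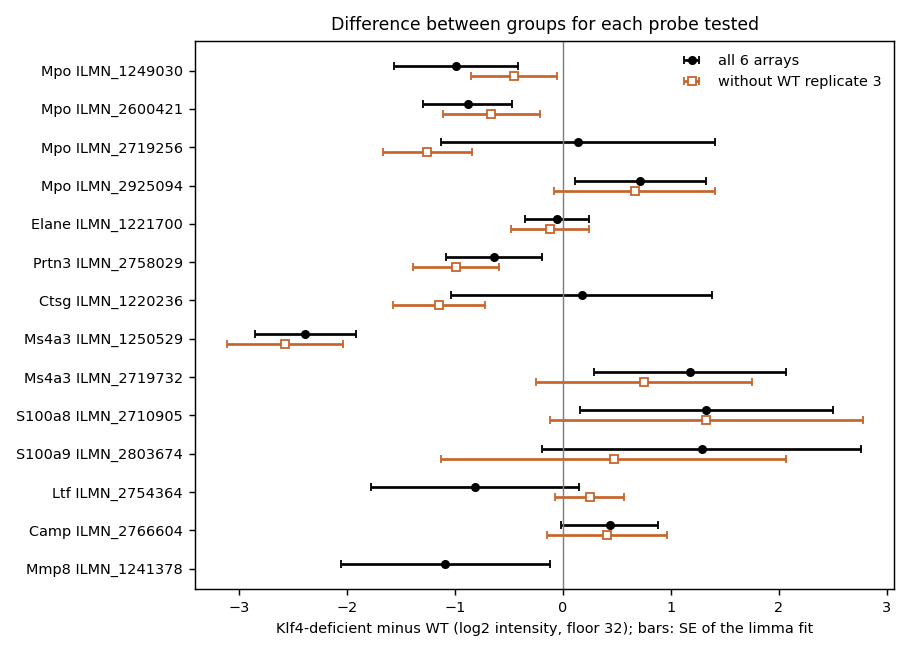
Klf4-deficient minus WT difference (log2 intensity with a floor of 32) of each of the 14 probes tested, with the SE of the limma fit, using all 6 arrays (black) and without WT replicate 3 (orange; Mmp8 has no such value, as no other array exceeded 32). Only the first Ms4a3 probe lies below -2, and the Ctsg and Ltf probes and Mpo probe ILMN_2719256 change sign without that array.

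Ms4a3 encodes a membrane protein of the MS4A family that is characteristic of granulocyte and monocyte progenitors, and its probes held the clearest separation and the clearest disagreement. Probe ILMN_1250529 read 455.2, 270.1 and 236.7 in WT and 87.5, 33.8 and 69 in the Klf4-deficient arrays. All WT arrays were above all Klf4-deficient arrays, which was so in the same direction for 0.958% of the probes tested and for 1 of the 14 granule and neutrophil probes (3.09% of all probes in either direction). The means were 8.26 ± 0.50 (log2, SD, n = 3) and 5.88 ± 0.71, a difference of -2.39 ± 0.46 (SE) or 5.22-fold. Its limma unadjusted p was 0.0032 and its adjusted p 0.715, so it did not pass the test. Unlike Ctsg it kept its size without WT replicate 3 (-2.57 ± 0.54), and it lay between -2.67 and -1.99 with any 1 array left out.

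The second Ms4a3 probe, ILMN_2719732, did not repeat that separation. It read 38.9, 154.8 and -9.4 in WT and 153.9, 52.2 and 276.8 in the Klf4-deficient arrays, with overlapping groups. The difference was 1.18 ± 0.89 (log2, SE, limma adjusted p = 0.715), of opposite sign to the first probe, and 0.75 ± 1.00 without WT replicate 3. The 2 probes carry the same transcript accession, and their differences lay 3.56 apart on the log2 scale. With both averaged, Ms4a3 differed by -0.60 ± 0.58 (SE, limma adjusted p = 0.735).

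S100a8 and S100a9 encode the calcium-binding partners of calprotectin, which fill the cytosol of mature neutrophils, and are neighbours in the same RefSeq list, with 0 protein-coding genes between them. S100a8 read 5.4, 4.7 and -2.1 in WT and 4.7, 21.8 and 505.9 in the Klf4-deficient arrays. It was therefore above the floor on 1 array only, Klf4-deficient replicate 3. With the floor of 32 the group means differed by 2.51-fold (1.33 ± 1.17 log2, SE, limma adjusted p = 0.715) on the strength of that array. With a floor of 64 the S100a8 difference was 0.99 (log2). S100a9 read 124.2, 246.6 and 2.9 in WT and 35.2, 409.1 and 986.3 in the Klf4-deficient arrays. Its highest array was again Klf4-deficient replicate 3, followed by Klf4-deficient replicate 2, while Klf4-deficient replicate 1 lay below WT replicates 1 and 2. The difference of 1.29 ± 1.48 (log2, SE) missed the threshold (limma adjusted p = 0.715), and it was 0.47 ± 1.60 without WT replicate 3 and 0.27 without Klf4-deficient replicate 3. The SD of S100a9 within groups, 1.50 in WT and 2.49 in the Klf4-deficient arrays (log2), was larger than the difference between them.

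Other neutrophil genes did not all share this pattern. Of 6 further neutrophil markers with a named probe, Ngp, Retnlg and Mmp9 exceeded 32 on 0 arrays. Csf3r, Cxcr2 and Lcn2 did so on 1 or 2 arrays each. In Klf4-deficient replicate 3 all 6 lay at the floor. Their sum was 95.1 to 160.4 in WT and 35.7 to 101.2 in the Klf4-deficient arrays. No single value in it exceeded 61.6 (Lcn2 in Klf4-deficient replicate 2), apart from Cxcr2 at 148.7 in WT replicate 3. On the other side, Stfa2 (210), its relative Stfa1 (92.6) and the lectin receptor gene Clec4e (104.7) were highest in Klf4-deficient replicate 3, as S100a8 and S100a9 were. They were picked after their values were seen, and other granule genes were highest elsewhere. Chil3 (175.4) and Wfdc21 (220.2) were highest in WT replicate 2, Pglyrp1 (93) in WT replicate 1 and Lyz2 (215.1) in WT replicate 3.

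The specific granule genes were mostly at the floor. Ltf, lactoferrin, which binds iron, read 24.9, 14.1 and 291.9 in WT and 53.4, 19.7 and 30.2 in the Klf4-deficient arrays on probe ILMN_2754364. WT replicate 3 was far above the rest, and only 1 other array exceeded 32. The difference was -0.82 ± 0.97 (log2, SE, limma adjusted p = 0.715) and 0.25 ± 0.32 without WT replicate 3. Mmp8, neutrophil collagenase, read 17.2, 7.4 and 308.4 in WT and 18.4, 19.2 and 20.4 in the Klf4-deficient arrays. It exceeded 32 only in WT replicate 3. With the floor of 32 the WT mean was 2.13-fold higher (-1.09 ± 0.96 log2, SE, limma adjusted p = 0.715) through that array alone. With a floor of 64 the difference was -0.76 (log2). Camp, the cathelicidin precursor of an antimicrobial peptide, read -14.3, 35.5 and -13.1 in WT and 87.4, -15.4 and 0 in the Klf4-deficient arrays. It was above the floor on 1 array of each group, with a difference of 0.43 ± 0.45 (log2, SE, limma adjusted p = 0.715), which was -0.05 without Klf4-deficient replicate 1.

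The S100 genes and the specific granule genes were high on different arrays. WT replicate 3, whose values may not stand for the named genes, held the highest Ltf and Mmp8 values but had S100a8 and S100a9 at the floor, and Klf4-deficient replicate 3 held the highest S100a8 and S100a9 values with Ltf, Camp and Mmp8 at the floor. Of the 14 tested probes, 4 were highest and 5 lowest in WT replicate 3. The mean over the 5 tested S100 and specific granule probes was 5.39, 5.62 and 6.29 (log2) in WT and 5.47, 5.74 and 6.79 in the Klf4-deficient arrays, with overlapping groups. Group means were 5.77 ± 0.47 (SD, n = 3) and 6.00 ± 0.70 for these probes, and 7.89 ± 0.60 and 7.67 ± 0.40 for the azurophil probes.

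**Figure D4:**
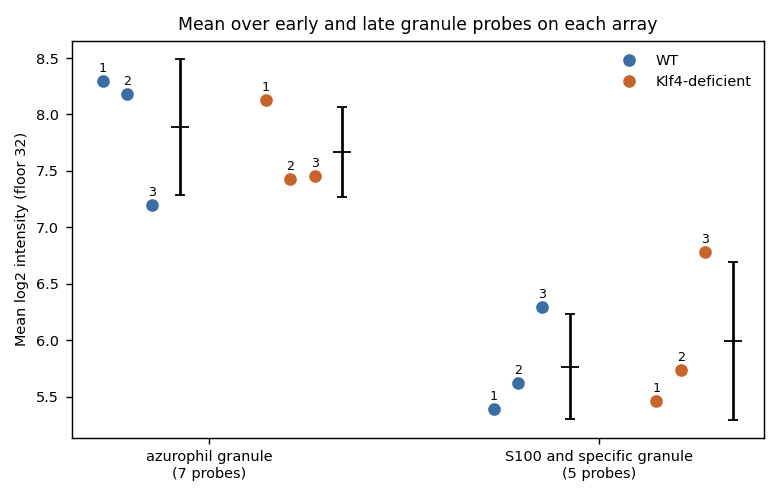
Mean log2 intensity (floor 32) on each array over the 7 azurophil probes (left) and the 5 tested S100 and specific granule probes (right), in WT (blue) and Klf4-deficient (orange) arrays; numbers are replicates, and black bars give the group mean ± SD. The groups overlap in both sets; WT replicate 3, at 7.20, is the lowest array on the left, and Klf4-deficient replicate 3, at 6.79, the highest on the right.

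Other genes of the same granules, their receptors and their regulators were read by the brightest probe of each gene. Of 72 such genes in 4 lists, 67 had a named probe, 45 were tested, 0 had an adjusted p under 0.05 in limma, and 0 had an unadjusted p under 0.05. Of 10 tested genes of azurophil granules and granule processing, 7 were higher and 3 lower in the Klf4-deficient arrays (median 0.59, log2), and the median was 0.30 without WT replicate 3. Gusb, the granule and lysosome enzyme beta-glucuronidase, read 146.5, 212.6 and -12.9 in WT and 143.9, 507.9 and 408.7 in the Klf4-deficient arrays (1.64 ± 0.89 log2, SE, limma adjusted p = 0.715; 0.81 ± 0.66 without WT replicate 3). WT replicate 3 was again at the floor, and the groups overlapped through Klf4-deficient replicate 1. Serpinb1a, an inhibitor of the granule serine proteases, read 62.1, 9.5 and 58.6 in WT and 21.4, 42 and 27.3 in the Klf4-deficient arrays (-0.48 ± 0.33, and -0.35 ± 0.38 without WT replicate 3).

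Of 13 tested genes of specific and gelatinase granules, 6 were higher and 7 lower (median -0.16), and 9 more with a named probe exceeded 32 on 0 arrays. Without WT replicate 3, 3 were higher and 8 lower (median -0.10). Stfa2, a cysteine protease inhibitor of the stefin A family, read -5.4, -1.7 and -3.5 in WT and -10.1, 104.8 and 210 in the Klf4-deficient arrays. With the floor of 32 the Klf4-deficient mean was 2.78-fold above WT (1.48 ± 0.71 log2, SE, limma adjusted p = 0.715). Replicates 2 and 3 were its high arrays, as for S100a9. Itgb2, the beta chain of the leukocyte integrins, read 77.3, 22.1 and 167.9 in WT and 15.9, 56 and 11.7 in the Klf4-deficient arrays (-0.95 ± 0.67, and -0.37 ± 0.53 without WT replicate 3).

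Of 9 tested transcription factors of granulocyte development, 6 were higher and 3 lower (median 0.21), and without WT replicate 3 there were 4 higher and 5 lower (median -0.34). Cebpa, Cebpb, Spi1 and Irf8, which direct myeloid fate, exceeded 32 on 0 arrays. Cebpd, a factor of the same C/EBP family, read 25.2, -1.5 and 12.4 in WT and 36, 280.5 and -6.1 in the Klf4-deficient arrays. With the floor of 32 it was 2.14-fold higher in the latter, mainly through replicate 2 (limma adjusted p = 0.715). Ets1 read 18.1, 21.7 and 263 in WT and 33.6, 19.6 and 13.4 in the Klf4-deficient arrays, a difference of -0.99 ± 0.90 that was 0.02 without WT replicate 3. Cebpe, which is needed for specific granules, exceeded 32 on 1 array, at 49.1 in Klf4-deficient replicate 1. Gfi1, a transcriptional repressor that neutrophil development needs, did so on 1 array, at 78 in Klf4-deficient replicate 3.

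Of 13 tested receptor and surface genes, 7 were higher and 6 lower (median 0.24), and without WT replicate 3 there were 9 higher and 3 lower (median 0.33). Csf2rb2, the beta chain of the interleukin-3 receptor, read 32, 14.9 and 3.9 in WT and 14.9, 93.9 and 59.5 in the Klf4-deficient arrays, 1.76-fold higher with the floor of 32 (limma adjusted p = 0.715). Cd93, a surface glycoprotein of early progenitors and myeloid cells, read 19.7, 30.8 and 13.4 in WT and 51.1, 20.1 and 65.4 in the Klf4-deficient arrays, 1.48-fold higher with the floor of 32 (limma adjusted p = 0.715). Both lay at the floor in WT throughout and above it in 2 of the 3 Klf4-deficient arrays.

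Among 844 probes of other named genes that exceeded 32 on all 6 arrays, the profiles most like that of Mpo probe ILMN_1249030 were those of Rpl3, a protein of the large ribosomal subunit, Psmd4, a ubiquitin receptor of the proteasome, and Acin1, a nuclear protein of apoptosis and splicing. Their mean absolute difference from it, after each probe was centred over the 6 arrays, was 0.21, 0.23 and 0.26 (log2). All 3 were highest in WT replicate 3, as Mpo was on that probe, with 14717.3 for Rpl3, 14017.6 for Psmd4 and 258.1 for Acin1. The genes were picked for following that probe over all 6 arrays, so a shared high value in WT replicate 3 comes with the choice. Likeness was not measured without that array, and over 6 arrays it is a description only.

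Markers of other cell types, most of which a lineage negative gate should remove, were read on the same arrays, each gene by its brightest probe. None had an adjusted p under 0.05 in limma. Of the marker genes tested, whose number in each list is given below, 4 had groups that did not overlap. In the Klf4-deficient arrays 3 of these were higher and 1 lower, where the shares over all probes tested were 2.13% upward and 0.958% downward. Alas2, the erythroid enzyme of haem synthesis, stood at 172, 114.1 and 160.7 in the Klf4-deficient arrays, with every WT array at the floor (2.20 ± 0.22 log2, SE, limma adjusted p = 0.595). Thy1, a surface protein of T cells and some progenitors, had 113, 187.2 and 146 there, also with every WT array at the floor (2.19 ± 0.24, limma adjusted p = 0.595). The T cell markers Cd3d (225.4) and Cd3e (56.3) went the other way, exceeding 32 only in WT replicate 3. H2-Ab1, a class II chain of antigen-presenting cells, was lower: 103, 417 and 1167.1 in WT against -4.3, 43.2 and 1.5 (-3.38 ± 0.91, and -2.55 ± 0.67 without WT replicate 3; limma adjusted p = 0.715). The remaining gene was Prg2 of eosinophils, higher by at least 2.16-fold. Thy1 has 2 probes and H2-Ab1 has 3, of which only the brightest was read.

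As lists, all markers but those of eosinophils had another median without WT replicate 3, and the erythroid median stayed above 0. Their median differences (log2) with all arrays and then without that array were 0.04 and 0.18 for neutrophils (5 tested of 8 named), -0.59 and -0.15 for monocytes and macrophages (2 of 6), and -0.06 and -0.33 for stem and progenitor cells (9 of 10). They were 0.69 and 0.47 for the erythroid lineage (6 of 7), 0.15 and 0.40 for B cells (1 of 4), and -0.27 and 2.19 for T and NK cells (3 of 5, and Thy1 alone without that array). For mast cells and basophils they were 0.42 and -0.01 (5 of 6), for eosinophils 0.82 and 0.82 (2 of 5), and for dendritic cells -0.06 and -0.74 (5 of 6). The numbers tested are those with all arrays. Without WT replicate 3 they fell to 4 for neutrophils, 8 for stem and progenitor cells and 4 for dendritic cells, so those medians also cover fewer genes. Of the monocyte markers Csf1r was at 274.3 in WT replicate 3, while Ccr2, Cx3cr1, F13a1 and Ms4a6c exceeded 32 on 0 arrays. The part of these cells in the values of the granule genes was not tested.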

How the data were processed

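Sorted samples, 3 WT and 3 Klf4-deficient, were read on Illumina bead arrays with 1 colour. A company prepared, hybridized and scanned the targets, per the labels' protocols. The submitters' processing notes name BeadStudio; its version and the background and normalization methods were not given in the sources used here. As deposited, intensities are linear, from -31 to 37007.2, with column medians of 1.6 to 1.7 and nearly equal sorted values (95.5% of ranks within 5% or 0.15), so a difference in total RNA cannot be seen. All 6 columns were used. Values were floored at 32 and converted to log2. The platform annotation named the probes, and Entrez numbers updated the symbols: 34885 had 1 symbol, 18 several and 10378 were not listed. Probe sequences and positions were not used here.

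Each probe above 32 on at least 1 array was fitted with limma 3.58.1 in R 4.3.3, without a replicate block. The fit used lmFit, eBayes and Benjamini-Hochberg over all probes tested, threshold 0.05. The step was tested on simulated data raised well above the floor, with a capped spread and large planted changes. That test does not show how the fit performs near the floor. Where all arrays of a group lay at the floor and all of the other group above it, the fold is written as "at least". Other folds depend on the floor in both groups. Genes named were the members, the 2 members of each of the 4 further granulocyte lists with the smallest p, and the 3 genes most like the brightest member probe; every other gene named, such as Gata2, Kit, Cebpa, Cebpe, Gfi1, Csf3r, Cxcr2, Lcn2, Stfa1, Clec4e, Alas2, Thy1, H2-Ab1, Epx and Mcpt8, was taken from the fixed lists after its values were seen. The members and lists were chosen with earlier results of these data known. Alternatives were the floor, an offset, the filter, quantile normalization, eBayes with trend, the handling of several probes per gene, a replicate block and leaving out each array.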

Additional observations from a re-analysis of the deposited data

How the results depend on the processing

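Across 16 alternatives, 0 granule or neutrophil probes were called. Of 209 differences refitted for the 14 probes, 199 kept their direction and 10, of 5 probes, turned. Many of the 199 could not turn. The filter, trend, block and brightest-probe settings leave each difference as it was, as does the mean of probes for genes with 1 probe. The lowest limma adjusted p was 0.427. Over all probes, 1 was called without a filter and 1 with the mean of the probes of a gene, against 0 in the main comparison and with any array left out; neither is a granule or neutrophil probe. With a floor of 64, Ctsg turned to -0.16 and Mpo probe ILMN_2719256 to -0.19 (log2). With 1 array left out, Elane lay between -0.23 and 0.17, Ctsg between -1.15 and 0.93, Mpo probe ILMN_2719256 between -1.26 and 0.97, Ltf between -1.35 and 0.25 and Camp between -0.050 and 0.67. Elane turned without WT replicate 1 (0.17) and without Klf4-deficient replicate 3 (0.08), and Ctsg (-0.16), that Mpo probe (-0.10) and Camp (-0.050) without Klf4-deficient replicate 1. The median over the probes lay between -0.13 and 0.28 in these fits. Ms4a3 probe ILMN_1250529 had an unadjusted limma p of 0.057 with trend and robust eBayes.

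Replicate numbers were used as a block once: 0 probes were called, and Ms4a3 probe ILMN_1250529 had a limma adjusted p of 0.749. In this balanced design a block cannot change a difference, so the median of the granule and neutrophil probes was bound to stay 0.04. Deviations of arrays with the same number correlated at 0.032 to 0.040, and of arrays with different numbers at -0.029 to -0.008. These values are all small and do not settle whether the numbers pair the samples. The labels name no shared mouse, litter or day, so the numbers were not taken to do so. With 63.3% of the 90 values above 32, signal over background limits S100a8 and Mmp8, each above 32 on 1 array, then Camp and the tested Ltf probe, above it on 2, more than the other genes.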

Other observations

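Prg2, the major basic protein of eosinophil granules, was read as a marker of another granulocyte lineage. It gave -6.3, -3.2 and 4 in WT and 67.8, 43.9 and 110.3 in the Klf4-deficient arrays. All Klf4-deficient arrays exceeded 32 and no WT array did. Groups that do not overlap, by the wider count that lets WT arrays exceed 32, were found upward for 2.13% of the probes tested, Alas2 and Thy1 among them. The Klf4-deficient mean was at least 2.16-fold above WT (1.11 ± 0.37 log2, SE, n = 3 per group), with a limma unadjusted p of 0.028 and an adjusted p of 0.715, so it did not pass the test. Epx, eosinophil peroxidase, a relative of Mpo, exceeded 32 on 1 array, at 96.7 in Klf4-deficient replicate 2, and Prg3, Il5ra and Siglecf on 0 arrays. Prg2 was singled out after its values were seen. Among basophil and mast cell proteases, Mcpt8, the protein-coding neighbour of Ctsg in the RefSeq list, read 843.8, 907.1 and 653 in WT and 1510.2, 584.1 and 968.8 in the Klf4-deficient arrays (0.26 ± 0.40 log2, SE, limma adjusted p = 0.761), with overlapping groups.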
